A study of Mus musculus with 9 samples.

Results

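The UDP-glucuronosyltransferases (UGTs) and the cytosolic sulfotransferases (SULTs) were followed here in mouse liver under ethanol feeding and Mettl3 overexpression. Members were taken by symbol, as every listed gene named Ugt1a, Ugt2a, Ugt2b or Ugt3a with a number, or Sult with a subfamily letter and a number. This gave 34 of the 17046 genes listed in either of the deposited tables, 18 UGTs and 16 SULTs, of which 33 were in both tables and Sult2a4 was in the table of ethanol-fed and pair-fed livers. The UGTs comprised 8 Ugt1a, 1 Ugt2a, 7 Ugt2b and 2 Ugt3a genes. The SULTs comprised 5 Sult1, 7 Sult2, 2 Sult3, 1 Sult4 and 1 Sult5 gene.

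RNA sequencing covered 9 liver libraries from wild-type mice, 3 in each of 3 groups, and all mice had received an adeno-associated virus of serotype 8 by tail vein. The first group, titled Mettl3OE EtOH-fed and called Mettl3 livers below, was fed ethanol and carried the AAV8-TBG-Mettl3-3×FLAG-WPRE virus, which expresses a tagged Mettl3, the catalytic subunit of the m6A RNA methyltransferase, from TBG, a promoter active in hepatocytes. The second group, titled WT EtOH-fed and called ethanol-fed control livers, was fed ethanol and carried AAV8-TBG-MCS-3×FLAG-WPRE. The third group, titled WT Pair-fed and called pair-fed livers, carried that control virus and received the control diet. Feeding started 3 weeks after injection, lasted 10 days and ended with a single binge, of ethanol in the ethanol-fed groups and of maltose in the pair-fed group. The sample labels give the genotype but not the virus, and no age, sex or batch, and no pair-fed group with the Mettl3 virus was analysed here. Nothing in the labels says that libraries of a group came from separate mice, so the p-values measure the spread between libraries. Mettl3 itself stood at 38.5, 25.0 and 33.3 FPKM in Mettl3 livers, 5.44, 4.86 and 3.78 FPKM in ethanol-fed control livers and 3.97, 3.10 and 3.38 FPKM in pair-fed livers, so every library titled Mettl3OE was above every other.

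Both families carry out conjugation, the step of drug and hormone metabolism that makes a molecule more water-soluble for export in bile or urine. UGTs sit in the endoplasmic reticulum membrane and transfer glucuronic acid from UDP-glucuronate, and SULTs sit in the cytosol and transfer a sulfonate group from the donor PAPS. In liver they clear bilirubin, bile acids, steroid and thyroid hormones, phenols and many drugs. The Ugt1a genes are an unusual locus in which each gene has its own promoter and leading exon, spliced to a set of exons that all of them use.

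Levels are given in FPKM, read counts divided by the gene's length and by the read total of the library. Total reads over the listed genes ran from 34656256 to 38159563 per library. Fold changes are differences of mean log2(FPKM + 1), tested with limma over all genes with at least 1 FPKM in at least 3 of the libraries fitted, and a gene is called where its Benjamini-Hochberg adjusted p is under 0.05. Of the members, 15 UGTs and 14 SULTs passed the filter in each comparison. Sult2a4, Sult4a1, Ugt1a2, Ugt1a7c and Ugt1a10 did not pass it: the highest value of any of them was 0.469 FPKM, and none had more than 30 reads in a library.

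The members lie largely in 3 gene clusters of the mouse genome (GRCm38, GENCODE M21). All 8 Ugt1a genes run along 165 kb of the plus strand of chromosome 1, from 88055388 to 88220002. On chromosome 5, between 86889767 and 87591594, 702 kb hold 11 members: the 7 Ugt2b genes, Ugt2a3, Sult1b1, Sult1d1 and Sult1e1. The 7 Sult2a genes lie within 870 kb of chromosome 7, from 13623967 to 14494230. Of the 2224 exonic bases of Ugt1a1, 1311 are annotated for other Ugt1a genes as well, and the gene length behind its deposited FPKM was 3229 bases, so it included the common exons. Ugt1a10, with 1318 of 2267 exonic bases shared, had at most 30 reads in a library whereas Ugt1a1 had at least 7154, so reads on the common exons were not credited to every gene. Exonic bases of its own numbered 913 for Ugt1a1, 938 for Ugt1a6b and 2142 for Ugt1a6a, against FPKM lengths of 3229, 2293 and 3302 bases. Ugt1a levels are therefore compared between groups for each gene, not between Ugt1a genes or with levels of other subfamilies. Reads could also be split between Ugt2b5 and Ugt2b38, where 24.7% of the 100-base stretches of the Ugt2b5 transcript recur in other members, and among Sult2a2 (34.6%), Sult2a5 (16.6%) and Sult2a1 (11.4%), and the values of these genes are uncertain to that extent.

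Promoter windows of 250 bases before the RefSeq start (GRCm38.p6) were available for 28 of the 34 members. Shown are 3 genes from the Ugt1a locus and Sult1e1, because Ugt1a9 and Ugt1a1 moved in opposite directions under ethanol, Ugt1a10 has a window similar to that of Ugt1a9 but almost no reads, and Sult1e1 had the largest fold change of the 29 members tested for ethanol feeding. Capitals mark GTTAATNAT, the core letters of a site for hepatocyte nuclear factor 1 (HNF1), which are on the minus strand in all 3 Ugt1a windows, and AGTTCA, a short site for nuclear receptors; no motif searched is in the Sult1e1 window. Windows are chr1:88070529-88070778 (plus strand) for Ugt1a9, chr1:88055161-88055410 (plus strand) for Ugt1a10, chr1:88211709-88211958 (plus strand) for Ugt1a1 and chr5:87591612-87591861 (minus strand) for Sult1e1.
Ugt1a9: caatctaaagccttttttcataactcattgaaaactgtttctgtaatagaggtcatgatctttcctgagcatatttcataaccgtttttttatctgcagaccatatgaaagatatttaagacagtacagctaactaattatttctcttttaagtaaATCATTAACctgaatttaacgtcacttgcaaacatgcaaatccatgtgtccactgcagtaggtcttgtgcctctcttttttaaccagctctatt
Ugt1a10: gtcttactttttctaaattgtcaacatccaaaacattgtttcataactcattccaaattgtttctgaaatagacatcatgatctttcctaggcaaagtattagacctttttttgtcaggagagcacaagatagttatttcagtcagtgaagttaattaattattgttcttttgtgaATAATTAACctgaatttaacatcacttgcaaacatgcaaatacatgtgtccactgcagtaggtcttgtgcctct
Ugt1a1: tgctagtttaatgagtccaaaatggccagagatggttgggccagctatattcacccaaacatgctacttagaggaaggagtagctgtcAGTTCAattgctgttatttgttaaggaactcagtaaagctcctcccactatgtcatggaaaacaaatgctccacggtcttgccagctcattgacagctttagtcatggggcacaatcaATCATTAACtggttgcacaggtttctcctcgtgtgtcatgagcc
Sult1e1: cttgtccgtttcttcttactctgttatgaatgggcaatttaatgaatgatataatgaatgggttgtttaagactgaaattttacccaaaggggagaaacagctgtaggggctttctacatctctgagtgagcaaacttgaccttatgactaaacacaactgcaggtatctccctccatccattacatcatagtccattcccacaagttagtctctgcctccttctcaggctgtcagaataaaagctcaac

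The HNF1 letters began 94 bases before the start in Ugt1a9, 74 bases before it in Ugt1a10 and 44 bases before it in Ugt1a1. In a pairwise alignment the Ugt1a9 window matched that of Ugt1a10 at 191 of 276 columns (69.2%) and that of Ugt1a1 at 151 of 304 columns (49.7%). On either strand, GTTAATNAT was in 3 of 16 UGT windows (18.8%) and 4 of 14 SULT windows (28.6%, Sult1d1, Sult2a3, Sult2a4 and Sult2a5), against 0.737% of 32851 mouse promoter windows of the same length. AGTTCA was in 2 UGT windows (Ugt1a1 and Ugt2b37) and 5 SULT windows, against 11.8% of all windows. The xenobiotic response core GCGTG was in the Ugt1a5, Sult1b1 and Sult1d1 windows, against 28.2% of all windows. No member window held TGACNNNGC, the antioxidant response element, or CAAAGTCCA, an HNF4 site, which were in 10.2% and 0.384% of all windows. The motifs overlapped each other in none of the printed windows, and a match is a description of letters, not a measured binding site.

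Ethanol feeding was compared with pair feeding in livers with the control virus, to ask how ethanol changes these transcripts. UGT transcripts were mostly lower in ethanol-fed control livers, across the Ugt1a, Ugt2a, Ugt2b and Ugt3a subfamilies, with Ugt1a9 the exception. SULT transcripts split: Sult1e1 and Sult1a1 were higher, Sult1b1, Sult1c2, Sult2a7 and Sult2a8 were lower, and the abundant Sult2a1 and Sult2a2 overlapped between the groups and were not called. Of 15 UGTs tested, 11 fell, 1 rose and 3 were not called, and of 14 SULTs tested, 4 fell, 2 rose and 8 were not called. Over all 10064 genes tested, 26.0% were called lower and 10.0% higher, 2616 and 1009 genes. The median log2 fold change was -0.71 over the UGTs, -0.37 over the SULTs and -0.14 over all genes tested.

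The general downward shift depends on the scale. With median-ratio scaling in place of the FPKM scale the all-gene median was 0.01, 1663 genes were called lower and 1796 higher, and 48.1% of called genes were lower, against 72.2% on the FPKM scale. On that scaling 10 UGTs were called lower and 1 higher, with a median of -0.53, and 4 SULTs lower and 2 higher, with a median of -0.19. In whole liver, fewer hepatocytes and less RNA per hepatocyte cannot be told apart. Of 8 hepatocyte markers, 3 were called higher and 0 lower in ethanol-fed control livers, and their summed level was 45326 to 61537 FPKM in ethanol-fed control livers and 54307 to 59986 FPKM in pair-fed livers. A single marker reached 47905 FPKM in a library, so hepatocyte sums here and below mostly follow the most abundant markers. Of 6 Kupffer cell markers, 5 were called lower, with sums of 86.0 to 134 FPKM in ethanol-fed control livers and 166 to 193 FPKM in pair-fed livers. Markers of other cell types moved as well: 3 of 5 sinusoidal endothelial and 3 of 5 stellate markers were called lower and 1 of each list higher, 2 of 2 tested gut epithelium markers were lower, and 1 of 2 tested neutrophil markers and 1 of 4 tested cholangiocyte markers were higher. The part of cell composition in the UGT and SULT changes was not tested.

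**Figure D1:**
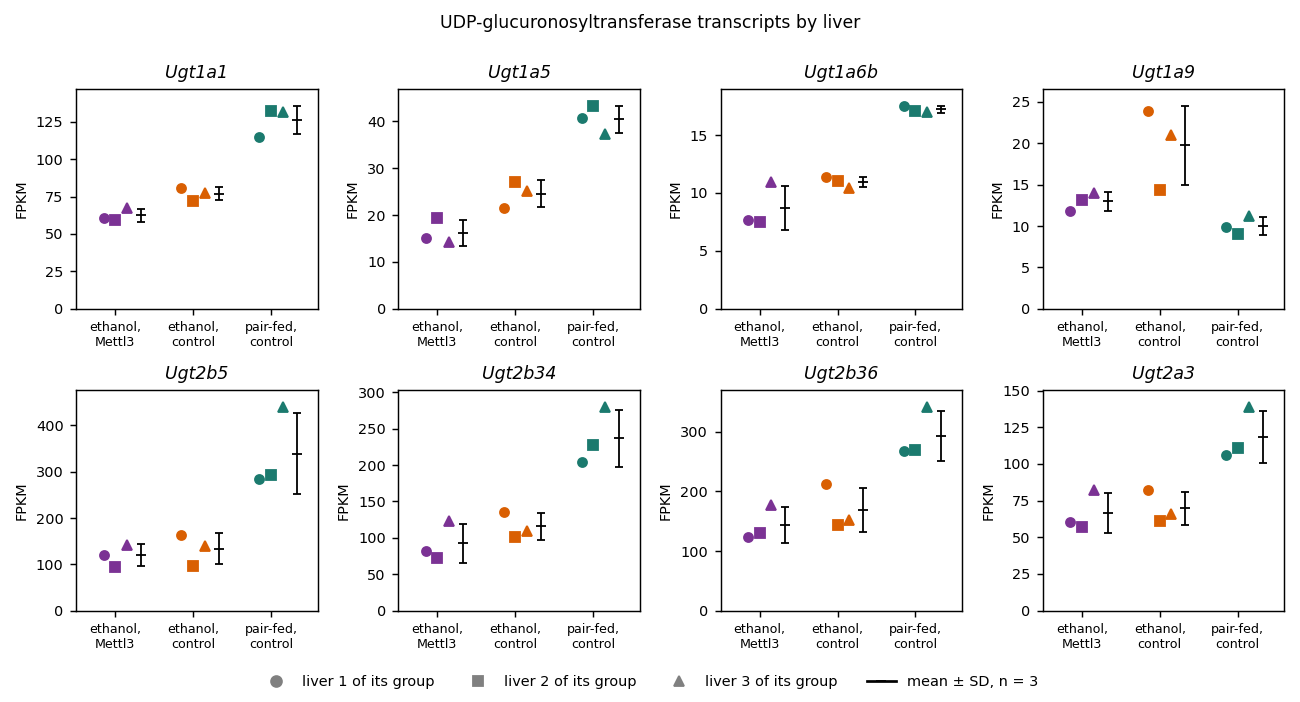
FPKM of 8 UGT genes (vertical axes, linear from 0) in each liver, with Mettl3 livers on the left, ethanol-fed control livers in the middle and pair-fed livers on the right of each panel; symbols are single livers and black bars are mean ± SD of 3. Each of the genes shown except Ugt1a9 had all its ethanol-fed livers below its pair-fed livers, and Ugt1a9 had them above.

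Within the Ugt1a locus the 5 expressed genes did not move together. Ugt1a1, which glucuronidates bilirubin, stood at 81.0, 72.2 and 77.2 FPKM in ethanol-fed control livers and 115, 132 and 131 FPKM in pair-fed livers. Every ethanol-fed control liver was below every pair-fed liver, and the gene fell (log2 fold change -0.71, SE 0.10, limma adjusted p = 0.0029). Ugt1a5 behaved much like it, at 21.6, 27.0 and 25.2 FPKM in ethanol-fed control livers and 40.7, 43.2 and 37.3 FPKM in pair-fed livers (log2 fold change -0.70, SE 0.11, limma adjusted p = 0.00492). Ugt1a6b fell with the smallest SE of the 5, at 11.3, 11.1 and 10.4 FPKM in ethanol-fed control livers and 17.6, 17.1 and 17.0 FPKM in pair-fed livers (log2 fold change -0.61, SE 0.09, limma adjusted p = 0.00309). Ugt1a6a, of the subfamily members that conjugate small planar phenols, was at 5.79, 5.71 and 6.05 FPKM in ethanol-fed control livers and 7.71, 8.87 and 9.13 FPKM in pair-fed livers. It fell too (log2 fold change -0.48, SE 0.10, limma adjusted p = 0.0103), but this call did not hold with median-ratio scaling (adjusted p = 0.0606), without pair-fed liver 2 (0.0581) or without pair-fed liver 3 (0.0537).

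Ugt1a9, whose human counterpart conjugates phenols and fatty acids, ran the other way. It stood at 23.9, 14.4 and 21.0 FPKM in ethanol-fed control livers and 9.91, 9.03 and 11.2 FPKM in pair-fed livers, so the groups did not overlap, and it rose (log2 fold change 0.89, SE 0.18, limma adjusted p = 0.0105). As a share of the summed FPKM of the Ugt1a genes, Ugt1a9 made up 11.0% to 16.6% in ethanol-fed control livers and 4.28% to 5.42% in pair-fed livers. Ugt1a1 had 55.1% to 56.3% of the sum in ethanol-fed control livers and 60.2% to 63.6% in pair-fed livers. The sum of the locus was 138 ± 6.75 FPKM in ethanol-fed control livers and 203 ± 10.3 FPKM in pair-fed livers (SD, n = 3 each), a ratio of 0.682. A share within the locus shows that its genes changed unequally, and the single-gene tests above give the direction of each. Shares and sums carry the unequal lengths described above and do not rank the genes. The size of their differences between groups depends on those lengths too.

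**Figure D2:**
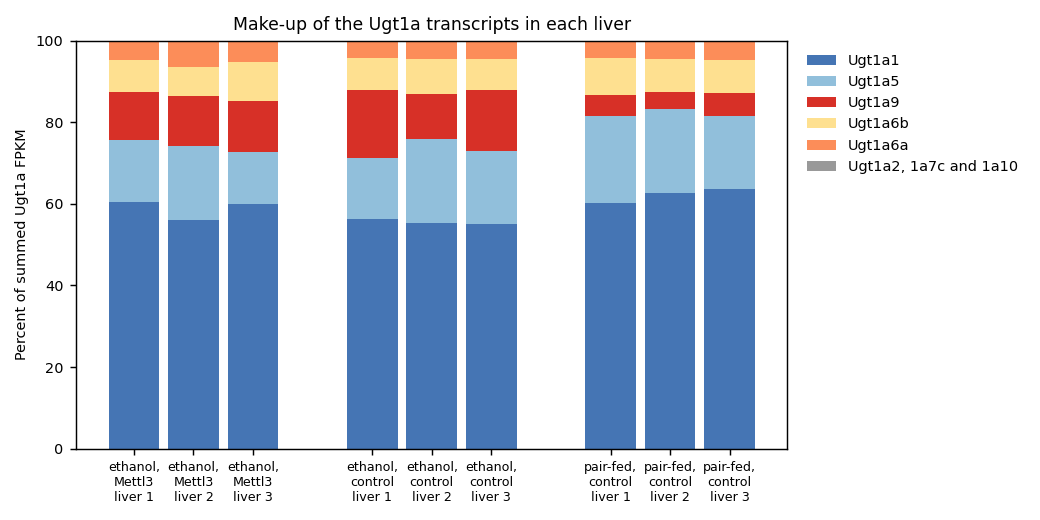
Stacked bars give the percent of the summed Ugt1a FPKM held by each gene in each liver, with Mettl3 livers on the left, ethanol-fed control livers in the middle and pair-fed livers on the right. The Ugt1a9 segment is between 11.0% and 16.6% in every ethanol-fed liver of either virus and between 4.28% and 5.42% in pair-fed livers, and the 3 scarce genes are too small to be seen. Segments, and the size of their differences between groups, depend on the gene lengths behind the deposited FPKM and do not rank the genes.

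The Ugt2b subfamily, which conjugates steroids, bile acids and drugs, included Ugt2b5 and Ugt2b36, which had the highest mean levels of the UGT transcripts outside the Ugt1a locus in pair-fed livers. Its summed level was 630, 409.5 and 477 FPKM in ethanol-fed control livers and 893, 949 and 1243 FPKM in pair-fed livers, a ratio of mean sums of 0.492. Ugt2b5 had 164, 97.3 and 139 FPKM in ethanol-fed control livers and 284, 292 and 439 FPKM in pair-fed livers, and had the largest decrease among the UGTs called in this comparison (log2 fold change -1.34, SE 0.23, limma adjusted p = 0.00615). All ethanol-fed control livers were below all pair-fed livers, among which liver 3 was high. Ugt2b34 had 136, 102 and 109 FPKM in ethanol-fed control livers and 204, 227 and 279.5 FPKM in pair-fed livers, and fell as well (log2 fold change -1.03, SE 0.16, limma adjusted p = 0.00393). Ugt2b36 had 212, 144 and 152 FPKM in ethanol-fed control livers and 269, 269 and 341 FPKM in pair-fed livers (log2 fold change -0.80, SE 0.17, limma adjusted p = 0.0123). That call did not hold without pair-fed liver 3 (-0.69, adjusted p = 0.053).

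Ugt2b1 had 68.5, 38.2 and 51.3 FPKM in ethanol-fed control livers and 83.5, 96.4 and 119 FPKM in pair-fed livers (log2 fold change -0.93, SE 0.22, limma adjusted p = 0.0171). Ugt2b35 had 44.7, 27.4 and 22.7 FPKM in ethanol-fed control livers and 48.7, 54.1 and 59.0 FPKM in pair-fed livers (log2 fold change -0.80, SE 0.23, limma adjusted p = 0.0314). For both genes the groups did not overlap, with ethanol-fed control liver 1 the closest to the pair-fed range. These are the less stable calls of the subfamily: Ugt2b1 lost its call without ethanol-fed control liver 3 (adjusted p = 0.051) or pair-fed liver 2 (0.0585) or 3 (0.0684). Ugt2b35 kept its call without ethanol-fed control liver 1 and lost it without any other single liver (adjusted p from 0.0619 to 0.108) and with no filter on low values (0.055). Ugt2b37 and Ugt2b38 were scarce, at 0.443 to 7.79 FPKM over the livers of both groups, and overlapped between them. Both were called lower once ethanol-fed control liver 1 was left out (log2 fold changes -0.69 and -1.42, limma adjusted p = 0.0242 and 0.0273).

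Ugt2a3, which lies among the Ugt2b genes and whose human counterpart conjugates bile acids, had 82.3, 60.9 and 65.8 FPKM in ethanol-fed control livers and 106, 111 and 139 FPKM in pair-fed livers. The groups did not overlap and the gene fell (log2 fold change -0.76, SE 0.15, limma adjusted p = 0.00928). Ugt3a1, whose human counterpart uses a donor sugar other than glucuronic acid, had 23.2, 16.1 and 18.9 FPKM in ethanol-fed control livers and 29.5, 33.2 and 33.9 FPKM in pair-fed livers and fell (log2 fold change -0.71, SE 0.14, limma adjusted p = 0.00907). Its neighbour Ugt3a2 was more abundant, at 194, 131 and 139 FPKM in ethanol-fed control livers and 176, 196 and 225 FPKM in pair-fed livers. Ethanol-fed control liver 1 lay within the pair-fed range and Ugt3a2 was not called (log2 fold change -0.38, SE 0.17, limma adjusted p = 0.12), but it was called lower without that liver (-0.55, adjusted p = 0.00946). Without pair-fed liver 3 the number of UGTs called lower was 7 in place of 11, and without ethanol-fed control liver 1 it was 14. The number of all genes called lower, 2616 with all livers, moved the same way. It fell without pair-fed liver 3 and was 3645 without ethanol-fed control liver 1. Leaving out single livers in turn it ran from 1130 to 3645, so these shifts in UGT counts are not particular to the family.

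**Figure D3:**
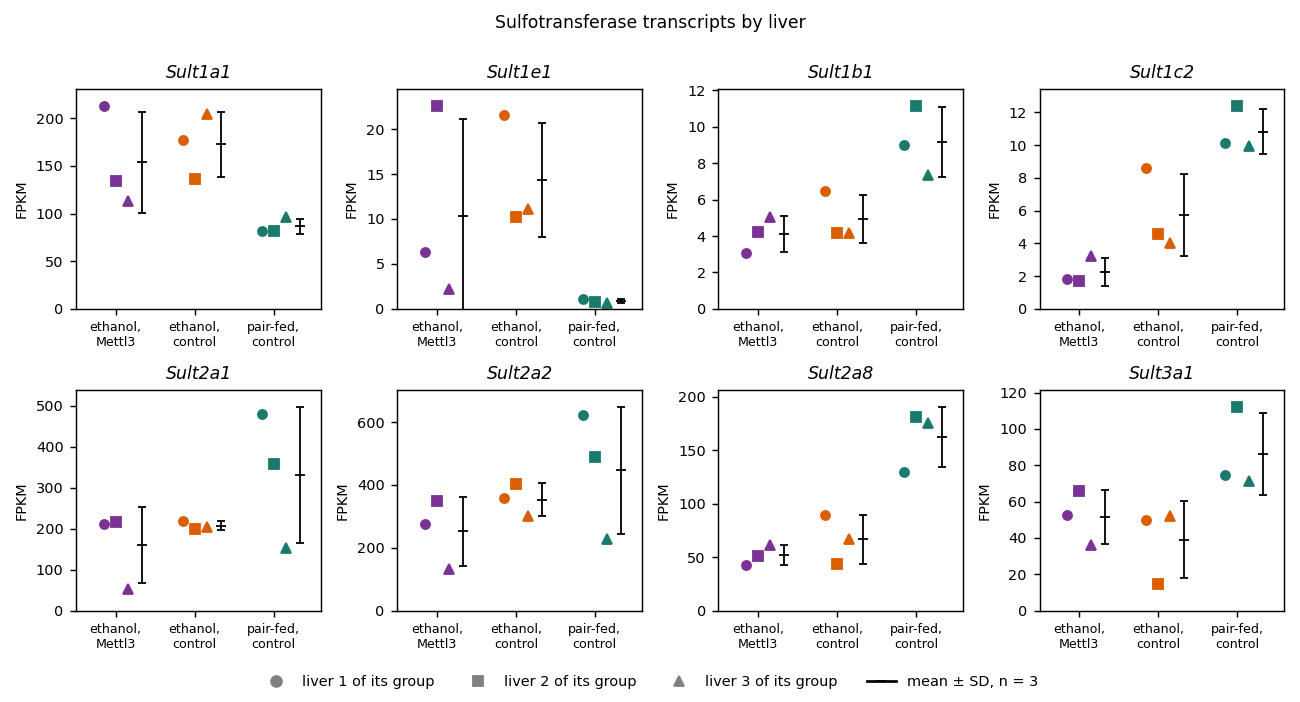
FPKM of 8 SULT genes (vertical axes, linear from 0) in each liver, with Mettl3 livers on the left, ethanol-fed control livers in the middle and pair-fed livers on the right of each panel; symbols are single livers and black bars are mean ± SD of 3, drawn down to 0 at most. Sult1a1 and Sult1e1 were higher in every ethanol-fed liver of either virus than in every pair-fed liver, Sult1b1, Sult1c2, Sult2a8 and Sult3a1 were lower, and Sult2a1 and Sult2a2 overlapped.

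Among the SULTs the largest change was in Sult1e1, the estrogen sulfotransferase. It had 21.6, 10.3 and 11.1 FPKM in ethanol-fed control livers and 1.10, 0.773 and 0.640 FPKM in pair-fed livers, a ratio of means of 17.1 that rests on 482 to 944 reads in the ethanol-fed control livers and 30 to 52 in the pair-fed livers. All ethanol-fed control livers were above all pair-fed livers and the gene rose (log2 fold change 2.99, SE 0.26, limma adjusted p = 0.000841). Sult1a1, the main phenol sulfotransferase, was far more abundant, at 177, 137 and 204 FPKM in ethanol-fed control livers and 82.0, 81.5 and 95.9 FPKM in pair-fed livers. It rose, with a ratio of means of 2.00 (log2 fold change 0.98, SE 0.16, limma adjusted p = 0.00468), and both rises were called under every alternative run for this comparison, with adjusted p of at most 0.0082 for Sult1e1 and 0.0254 for Sult1a1.

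Sult1b1, which sulfates thyroid hormone and phenols, had 6.47, 4.14 and 4.19 FPKM in ethanol-fed control livers and 9.00, 11.2 and 7.36 FPKM in pair-fed livers and fell (log2 fold change -0.78, SE 0.19, limma adjusted p = 0.0195). Sult1b1, Sult1d1 and Sult1e1 are neighbours on chromosome 5, and of the 3 one fell, one rose and one was not called. Sult1d1, which sulfates catecholamines in mouse, had 96.6, 68.4 and 105 FPKM in ethanol-fed control livers and 87.1, 90.4 and 136 FPKM in pair-fed livers. Its groups overlapped (log2 fold change -0.21 ± 0.22, SE, 95% interval -0.72 to 0.30). The length behind the deposited FPKM was 4264 bases for Sult1a1, with 1507 exonic bases annotated, and 2394 bases for Sult1d1, with 2459 annotated. In pair-fed livers Sult1a1 had 12848 to 15219 reads and Sult1d1 had 7821 to 12151. Levels of these genes are therefore not ranked against each other. Sult1c2, on chromosome 17, had 8.61, 4.58 and 4.02 FPKM in ethanol-fed control livers and 10.1, 12.4 and 9.94 FPKM in pair-fed livers and fell (log2 fold change -0.87, SE 0.24, limma adjusted p = 0.0284). Both decreases depended on single livers: Sult1b1 was not called without ethanol-fed control liver 2 (adjusted p = 0.061) or 3 (0.0623) or pair-fed liver 1 (0.0559) or 2 (0.0729). Sult1c2 was called with all livers and without ethanol-fed control liver 1, and not without any other single liver (adjusted p from 0.0647 to 0.103) or with no filter on low values (0.0502).

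The Sult2a genes, which sulfate bile acids and steroids such as dehydroepiandrosterone, include the SULT transcripts with the highest mean deposited FPKM. In ethanol-fed livers that rank depends on the Sult1a1 length given above. Sult2a8, a liver enzyme of mice that sulfates bile acids, had 89.0, 43.8 and 66.8 FPKM in ethanol-fed control livers and 129.7, 181 and 175 FPKM in pair-fed livers. The groups did not overlap and Sult2a8 fell (log2 fold change -1.31, SE 0.25, limma adjusted p = 0.00857). Sult2a7 was scarce, at 1.94, 0.657 and 0.975 FPKM in ethanol-fed control livers and 2.81, 3.95 and 2.37 FPKM in pair-fed livers. It fell (log2 fold change -0.91, SE 0.23, limma adjusted p = 0.0218), on 27 to 161 reads per library, and was not called without ethanol-fed control liver 2 (adjusted p = 0.0615) or 3 (0.0684) or pair-fed liver 1 (0.0547) or 2 (0.0803). In all, 1 SULT was called lower without ethanol-fed control liver 3 or pair-fed liver 1 or 2, in place of 4. Without ethanol-fed control liver 2 the number was 2. The number of all genes called lower was also below 2616 in each of these fits.

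Sult2a1 and Sult2a2 were not called, and their pair-fed livers spread widely. Sult2a1 had 219, 199 and 203 FPKM in ethanol-fed control livers and 480, 358 and 152 FPKM in pair-fed livers (log2 fold change -0.52 ± 0.38, SE, 95% interval -1.40 to 0.36). Sult2a2 had 358, 402 and 300.2 FPKM in ethanol-fed control livers and 622, 489.6 and 227 FPKM in pair-fed livers (log2 fold change -0.22 ± 0.34, SE, 95% interval -1.03 to 0.58). Pair-fed liver 3 was below every ethanol-fed control liver for both genes, and the other pair-fed livers were above them. Without pair-fed liver 3, Sult2a1 was called lower (-1.0002, limma adjusted p = 0.0159). Sult2a3 had 23.0, 38.4 and 19.3 FPKM in ethanol-fed control livers and 46.0, 21.0 and 8.21 FPKM in pair-fed livers. Sult2a5 had 5.43, 13.7 and 4.19 FPKM in ethanol-fed control livers and 21.9, 16.5 and 4.98 FPKM in pair-fed livers. Both overlapped between the groups, with pair-fed liver 3 again the lowest of its group.

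Pair-fed liver 3 was not low throughout the families. Of the 29 tested members, it had the lowest value of its group for Sult1b1, Sult1c2, Sult1e1, Sult2a1, Sult2a2, Sult2a3, Sult2a5, Sult2a7, Sult3a1, Sult3a2, Sult5a1, Ugt1a5, Ugt1a6b and Ugt2b37. It had the highest value for Sult1a1, Sult1d1, Ugt1a6a, Ugt1a9, Ugt2a3, Ugt2b1, Ugt2b5, Ugt2b34, Ugt2b35, Ugt2b36, Ugt3a1 and Ugt3a2. In mouse liver several Sult2a and Sult3a genes are predominantly expressed in females, and the labels give no sex. Xist, the transcript of the inactive X chromosome, was at 41.9 to 69.1 FPKM in all 9 libraries. Ddx3y, a Y-linked gene listed in both tables, was at 0.0223 FPKM at most, and the Y-linked Uty, Kdm5d and Eif2s3y were not listed in both. The libraries of all groups were therefore alike in these sex-linked transcripts and had the pattern of female tissue.

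Sult3a1, which sulfates amines in mouse, had 50.1, 14.7 and 52.2 FPKM in ethanol-fed control livers and 74.5, 112 and 71.4 FPKM in pair-fed livers. All ethanol-fed control livers were below all pair-fed livers, with ethanol-fed control liver 2 far below the others, and the gene was not called (log2 fold change -1.28, SE 0.46, limma adjusted p = 0.0639). It was called lower without that liver (-0.71, adjusted p = 0.0481) and without ethanol-fed control liver 1 (-1.56, adjusted p = 0.0476). Sult3a2 and Sult5a1 were at 0.678 to 7.42 FPKM over the livers of both groups, overlapped between them and were not called.

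**Figure D4:**
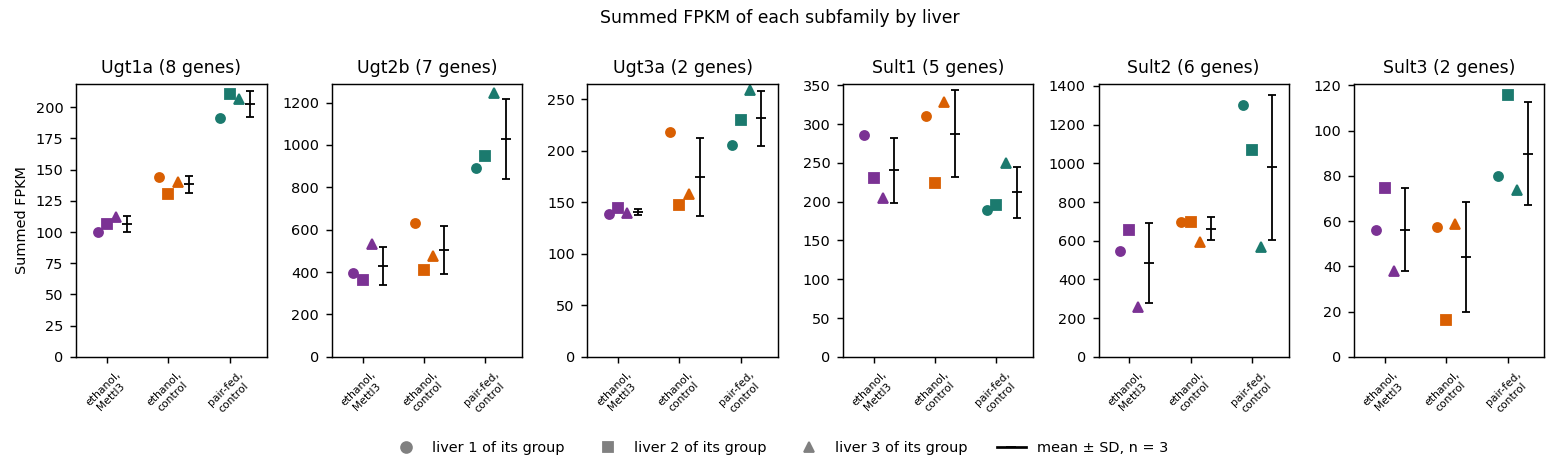
Summed FPKM of each subfamily (vertical axes, linear from 0, a scale for each panel) in each liver, with Mettl3 livers on the left, ethanol-fed control livers in the middle and pair-fed livers on the right; black bars are mean ± SD of 3, and Sult2a4 is left out of Sult2. The Ugt1a sums form 3 ranges that do not overlap, and the Sult2 sums of pair-fed livers span 569 to 1302 FPKM.

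Summed by subfamily, transcripts in ethanol-fed control livers ranged from below the pair-fed level to above it, and these sums are given as a description without a test. Mean sums in ethanol-fed control livers were 0.492 of the pair-fed mean for Ugt2b, 0.682 for Ugt1a and 0.753 for Ugt3a. For Sult2 the ratio was 0.676, for Sult3 0.491 and for Sult1 1.36. The Sult1 sum was 288 ± 55.9 FPKM in ethanol-fed control livers and 212 ± 33.3 FPKM in pair-fed livers (SD, n = 3 each), with overlapping groups. Sult1a1 took 57.1% to 62.3% of the Sult1 sum in ethanol-fed control livers and 38.3% to 43.3% in pair-fed livers, and Sult1d1 took 30.5% to 31.9% in ethanol-fed control livers and 46.0% to 54.5% in pair-fed livers. The Sult1 sum and these shares depend on the Sult1a1 length given above and do not rank the genes. Because Sult1a1 rose and Sult1d1 was not called, the Sult1 ratio and the overlap of its sums depend on that length too.

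The authors' deposited table for this comparison, made from counts with DESeq2, gives a picture close to the FPKM test. The authors' deposited table lists 10 UGTs with q under 0.05 and a lower value in ethanol-fed control livers, and 1 UGT a higher one. For the SULTs the authors' deposited table lists 4 as lower and 3 as higher, where 12.6% of its 16842 genes were lower and 14.0% higher. Of the 18 members called by limma, 17 had the same call in the authors' deposited table, and the other was Ugt1a6a (q = 0.0793). The third higher SULT in the authors' deposited table was Sult4a1 (q = 0.00973), which was listed at 0.246 FPKM or less in every library.

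Genes that serve the same conjugation steps were counted beside the families. Of 15 tested genes on the donor supply list, 4 fell and 0 rose in ethanol-fed control livers. The list holds genes for making UDP-glucuronate and PAPS and carriers of sulfate, PAPS and nucleotide sugars. It also holds Bpnt1, which breaks down the PAP left from PAPS, and the protein sulfotransferases Tpst1 and Tpst2, which use PAPS. Papss2, which makes PAPS, was at 38.1 ± 3.11 FPKM in ethanol-fed control livers and 66.6 ± 7.60 FPKM in pair-fed livers (SD, n = 3 each; log2 fold change -0.79, SE 0.12, limma adjusted p = 0.00359). Ugdh, which makes UDP-glucuronate, was at 22.2 ± 6.24 FPKM in ethanol-fed control livers and 35.7 ± 4.24 FPKM in pair-fed livers (log2 fold change -0.69, SE 0.19, limma adjusted p = 0.0285). The other called donor genes were Slc35b2, a PAPS carrier, and Slc35a3, a carrier of nucleotide sugars. Of 11 tested transporters of conjugates and bile acids, 6 fell and 0 rose, among them Abcc2, which exports conjugates into bile, at 47.3 ± 10.3 FPKM in ethanol-fed control livers and 124 ± 23.9 FPKM in pair-fed livers (log2 fold change -1.37, SE 0.19, limma adjusted p = 0.00308). Abcc3, which exports conjugates to blood, and the uptake carriers Slco1b2 and Slco1a1 also fell. Of 9 tested genes on the list for reversing conjugation, 3 fell and 0 rose: Ces1d and Ces1g, which are carboxylesterases, and Sumf1, which activates sulfatases.

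Of 22 tested transcription factors known to act on these families, 10 fell and 0 rose. Nr1i3, the receptor CAR, was at 44.5 ± 14.8 FPKM in ethanol-fed control livers and 156 ± 7.89 FPKM in pair-fed livers (log2 fold change -1.84, SE 0.21, limma adjusted p = 0.00158). Ppara, the fatty acid receptor, was at 13.0 ± 4.36 FPKM in ethanol-fed control livers and 45.9 ± 4.74 FPKM in pair-fed livers (log2 fold change -1.78, SE 0.21, limma adjusted p = 0.00177). Nr0b2, a corepressor of nuclear receptors, and Cux2, a female-predominant factor of mouse liver, fell as well. Of 15 tested classical targets of the receptors, 8 fell and 2 rose. Cyp2b10, a CAR target, rose to 15.6 ± 7.47 FPKM in ethanol-fed control livers, against 0.382 ± 0.0238 FPKM in pair-fed livers (log2 fold change 3.48, SE 0.31, limma adjusted p = 0.000841), and Tiparp, a target of the aryl hydrocarbon receptor, rose too, while Acot1 and Gclm fell. Of 13 tested transferases of other conjugation pathways, 6 fell and 2 rose, the methyltransferase Inmt being lower and the methyltransferase Nnmt and the bile acid enzyme Baat higher. Against the background of 26.0% lower and 10.0% higher, these counts describe the lists and were not tested as sets.

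These list counts moved with the scale. With median-ratio scaling, 2 donor supply genes were lower and 0 higher, and Ugdh (adjusted p = 0.0518) and Slc35a3 (0.0894) were no longer called. The transcription factors then had 6 lower and 1 higher, the other transferases 1 lower and 3 higher, the transporters 6 lower and 1 higher, the receptor targets 7 lower and 2 higher, and the reversal list 3 lower and 0 higher. Over all 10032 genes tested with that scaling, 1663 were called lower and 1796 higher.

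The Mettl3 virus was compared with the control virus in ethanol-fed livers, to ask what Mettl3 overexpression adds under ethanol. No UGT or SULT was called. Of the 9706 genes tested with limma, 1 was called, Mettl3 itself (0.0103%; log2 fold change 2.54, SE 0.19, limma adjusted p = 0.0257), and 723 had an unadjusted p under 0.05. Among the members, 3 of 15 UGTs and 1 of 14 SULTs had an unadjusted p under 0.05, namely Ugt1a1, Ugt1a5, Ugt1a9 and Sult1c2, all with lower means in Mettl3 livers. The median log2 fold change was -0.23 over the UGTs, -0.36 over the SULTs and -0.04 over all genes tested. Under median-ratio scaling these medians were -0.15, -0.29 and 0.02, and no member was called under any alternative run. With that scaling 2 UGTs and 1 SULT had an unadjusted limma p under 0.05, against 853 of all 9695 genes tested.

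Among the UGTs the smallest unadjusted p were those of Ugt1a5, Ugt1a9 and Ugt1a1, and none of these genes was called. Ugt1a1 had 60.4, 59.6 and 67.4 FPKM in Mettl3 livers and 81.0, 72.2 and 77.2 FPKM in ethanol-fed control livers, and the groups did not overlap. The log2 fold change of Ugt1a1 was -0.29 ± 0.11 (SE, 95% interval -0.55 to -0.03, limma adjusted p = 0.641). Ugt1a5 had 15.1, 19.4 and 14.2 FPKM in Mettl3 livers and 21.6, 27.0 and 25.2 FPKM in ethanol-fed control livers, with a log2 fold change of -0.58 ± 0.15 (SE, 95% interval -0.94 to -0.21, limma adjusted p = 0.641). Ugt1a9 had 11.8, 13.1 and 14.0 FPKM in Mettl3 livers and 23.9, 14.4 and 21.0 FPKM in ethanol-fed control livers, with a log2 fold change of -0.54 ± 0.19 (SE, 95% interval -0.99 to -0.10, limma adjusted p = 0.641). Neither Ugt1a5 nor Ugt1a9 overlapped between the groups, though Mettl3 liver 3 and ethanol-fed control liver 2 were close for Ugt1a9. The summed Ugt1a level was 99.8 to 112 FPKM in Mettl3 livers and 131 to 144 FPKM in ethanol-fed control livers. The remaining Ugt1a genes overlapped, with 7.71, 7.50 and 10.9 FPKM for Ugt1a6b and 4.41, 6.72 and 5.55 FPKM for Ugt1a6a in Mettl3 livers. Ugt3a2 was the other UGT whose groups did not overlap, at 122, 127 and 119.8 FPKM in Mettl3 livers and 194, 131 and 139 FPKM in ethanol-fed control livers (limma adjusted p = 0.645). The share of all tested genes without overlap was not counted, so the separations given here and below are descriptions.

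The Ugt2b genes were close between the viruses. Ugt2b5 had 121, 94.6 and 142 FPKM, Ugt2b34 had 82.4, 72.0 and 122 FPKM and Ugt2b36 had 123, 129.6 and 178 FPKM in Mettl3 livers, and each overlapped its range in ethanol-fed control livers given above. The 95% intervals of the difference were -0.69 to 0.39 for Ugt2b5, -0.86 to 0.16 for Ugt2b34 and -0.71 to 0.25 for Ugt2b36, on the log2 scale. Ugt2b1 (45.1, 42.1 and 53.4 FPKM), Ugt2b35 (19.8, 22.5 and 35.0 FPKM), Ugt2a3 (60.3, 56.9 and 81.9 FPKM) and Ugt3a1 (16.4, 17.4 and 19.6 FPKM) also overlapped. Mettl3 liver 3 had the highest value of its group for each Ugt2b gene above 10 FPKM, for Ugt2a3 and for Ugt3a1.

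Sult1c2 had 1.84, 1.67 and 3.22 FPKM in Mettl3 livers and 8.61, 4.58 and 4.02 FPKM in ethanol-fed control livers, the SULT whose groups did not overlap. Its log2 fold change was -1.02 ± 0.28 (SE, 95% interval -1.69 to -0.35), with a limma adjusted p of 0.641, and the alternatives gave 0.223 to 1. Sult1c2 was the one member with q under 0.05 in the authors' deposited table (log2 fold change -1.26, q = 0.0259), where 101 of 16470 genes (0.613%) had q under 0.05. Sult1e1 spread widely, at 6.29, 22.6 and 2.23 FPKM in Mettl3 livers and 21.6, 10.3 and 11.1 FPKM in ethanol-fed control livers. Mettl3 liver 2 was the highest of all 9 livers for Sult1e1 and Mettl3 liver 3 the lowest ethanol-fed one, so the 95% interval of the log2 fold change ran -2.42 to 0.78. Sult1a1 (213, 135 and 113 FPKM), Sult1b1 (3.06, 4.24 and 5.04 FPKM) and Sult1d1 (61.9, 67.4 and 81.1 FPKM) overlapped between the viruses.

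In the Sult2a cluster Mettl3 liver 3 stood apart. Sult2a1 had 210.3, 216 and 53.8 FPKM in Mettl3 livers and 219, 199 and 203 FPKM in ethanol-fed control livers. Sult2a2 had 275, 350 and 133 FPKM in Mettl3 livers and 358, 402 and 300.2 FPKM in ethanol-fed control livers. Mettl3 liver 3 was also the lowest of its group for Sult2a3 (11.1, 27.6 and 3.96 FPKM), Sult2a5 (4.36, 7.88 and 2.86 FPKM), Sult2a7 (1.02, 1.44 and 0.666 FPKM) and Sult3a1 (52.7, 65.7 and 36.3 FPKM), and the highest for Sult2a8 (42.5, 51.0 and 61.4 FPKM). Every Sult2a and Sult3a gene tested overlapped between the viruses. Of the genes on the lists for donor supply, reversal, transport, transcription factors, receptor targets and other transferases, 0 were called in this comparison. Summed neutrophil markers were 45.5 to 93.1 FPKM in Mettl3 livers and 7.52 to 65.3 FPKM in ethanol-fed control livers, and summed hepatocyte markers 40000 to 48907 FPKM in Mettl3 livers and 45326 to 61537 FPKM in ethanol-fed control livers, with 0 markers of either list called, and their part in these values was not tested.

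Mettl3 livers were also set against pair-fed livers, where diet and virus differ together and their effects cannot be told apart. This comparison shares the pair-fed livers with the ethanol comparison above, so the values below are not independent of it. Of 15 UGTs tested, 12 fell, 0 rose and 3 were not called, and of 14 SULTs, 4 fell, 2 rose and 8 were not called. Of all 10229 genes tested, 34.9% were called lower and 13.9% higher. The median log2 fold change was -0.92 over the UGTs, -0.82 over the SULTs and -0.18 over all genes. With median-ratio scaling the all-gene median was 0.04, 2168 genes were called lower and 2597 higher, 45.5% of calls were lower in place of 71.5%, and 11 UGTs were called lower and 1 higher, with 4 SULTs lower and 2 higher.

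Cell type markers differed in this comparison too. Summed hepatocyte markers were 40000 to 48907 FPKM in Mettl3 livers and 54307 to 59986 FPKM in pair-fed livers, with 2 of 8 called higher and 1 lower. As above, the hepatocyte sum mostly follows the most abundant markers and not the list as a whole. Summed neutrophil markers were 45.5 to 93.1 FPKM in Mettl3 livers and 5.86 to 8.97 FPKM in pair-fed livers, with 2 of 2 tested markers called higher. Summed Kupffer cell markers were 69.2 to 144 FPKM in Mettl3 livers and 166 to 193 FPKM in pair-fed livers, with 5 of 6 called lower. None of these sums overlapped between the groups, 3 of 5 stellate and 2 of 5 sinusoidal endothelial markers were called lower and 1 of each list higher, and their part in the UGT and SULT changes was not tested.

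Ugt1a5 and Ugt1a1 had the smallest p among the members. Ugt1a5 fell to 16.2 ± 2.76 FPKM in Mettl3 livers, against 40.4 ± 2.98 FPKM in pair-fed livers (SD, n = 3 each; log2 fold change -1.27, SE 0.13, limma adjusted p = 0.000469). Ugt1a1 fell to 62.5 ± 4.27 FPKM in Mettl3 livers, against 126 ± 9.66 FPKM in pair-fed livers (log2 fold change -1.001, SE 0.10, limma adjusted p = 0.000347). Ugt1a6b fell too (log2 fold change -0.92, SE 0.13, limma adjusted p = 0.00119), as did Ugt1a6a (log2 fold change -0.56, SE 0.13, limma adjusted p = 0.00841), although Ugt1a6a was not called with median-ratio scaling (adjusted p = 0.118). Ugt1a9 had 13.0 ± 1.10 FPKM in Mettl3 livers and 10.0 ± 1.08 FPKM in pair-fed livers, and its groups did not overlap. It was not called on the FPKM scale in the fit of all 9 libraries (log2 fold change 0.34, SE 0.17, limma adjusted p = 0.121), and was called higher with median-ratio scaling (0.59, adjusted p = 0.0185), in a fit of the 6 libraries compared (0.0342) and without ethanol-fed control liver 2, which enters this fit through the shared spread (0.0371). Its share of the Ugt1a sum was 11.8% to 12.5% in Mettl3 livers and 4.28% to 5.42% in pair-fed livers.

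The other UGT decreases were spread over the remaining subfamilies. Ugt2b5 had the largest of them in this comparison, with 119 ± 23.7 FPKM in Mettl3 livers and 338 ± 87.3 FPKM in pair-fed livers (log2 fold change -1.49, SE 0.24, limma adjusted p = 0.00186). Ugt2b34 had 92.3 ± 26.6 FPKM in Mettl3 livers and 237 ± 38.8 FPKM in pair-fed livers (log2 fold change -1.37, SE 0.21, limma adjusted p = 0.0015). Ugt2b1, Ugt2b35, Ugt2b36, Ugt2a3 and Ugt3a1 fell by log2 fold changes between -1.07 and -0.82, with limma adjusted p from 0.00207 to 0.00956. Ugt3a2, not called for ethanol alone, fell to 123 ± 3.55 FPKM in Mettl3 livers, against 199 ± 24.4 FPKM in pair-fed livers (log2 fold change -0.69, SE 0.16, limma adjusted p = 0.00691). Whether the Ugt3a2 changes of the 2 comparisons differ is the Mettl3 comparison above, in which it was not called. The number of UGTs called lower stayed at 12 when each single liver was left out in turn, while that of all genes ran from 2398 to 4080.

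Among the SULTs, Sult1c2 had the largest decrease in this comparison, with 2.24 ± 0.849 FPKM in Mettl3 livers and 10.8 ± 1.38 FPKM in pair-fed livers (log2 fold change -1.89, SE 0.26, limma adjusted p = 0.00105). Sult2a8 fell to 51.6 ± 9.44 FPKM in Mettl3 livers, against 162 ± 28.1 FPKM in pair-fed livers (log2 fold change -1.63, SE 0.25, limma adjusted p = 0.00163). Sult1b1 (log2 fold change -0.996, SE 0.21, limma adjusted p = 0.00476) and Sult2a7 (log2 fold change -0.98, SE 0.23, limma adjusted p = 0.00852) fell as well. Sult1e1 rose (log2 fold change 2.17, SE 0.60, limma adjusted p = 0.0162), all Mettl3 livers being above all pair-fed livers, but it was not called by limma-voom on the recovered reads (adjusted p = 0.0556) or without pair-fed liver 3 (0.0533). Sult1a1 rose (log2 fold change 0.77, SE 0.23, limma adjusted p = 0.0219), and was not called without Mettl3 liver 1 (adjusted p = 0.0588), pair-fed liver 1 (0.0639) or pair-fed liver 2 (0.0691).

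Sult2a1, Sult2a2 and Sult2a5 were not called in this comparison with all livers, and their adjusted p were 0.115, 0.134 and 0.0901 with limma. Without pair-fed liver 3 all of them were called lower, with log2 fold changes of -1.61 for Sult2a1, -1.23 for Sult2a2 and -1.82 for Sult2a5 and limma adjusted p of 0.0494, 0.0348 and 0.0236. The count of SULTs called lower was then 7 in place of 4. Leaving out single libraries in turn, 2398 to 4080 of all genes were called lower, in place of 3572. Sult1d1, Sult3a1 and Sult5a1 had all Mettl3 livers below all pair-fed livers and were not called with all livers. They were called lower in the fit of the 6 libraries compared (limma adjusted p = 0.0471, 0.043 and 0.00557), as they were without ethanol-fed control liver 2 (0.038, 0.0333 and 0.0237). Sult1d1 was also called lower without Mettl3 liver 3 (-0.66, adjusted p = 0.037), and Sult5a1 without ethanol-fed control liver 1 (-0.52, adjusted p = 0.0217).

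**Figure D5:**
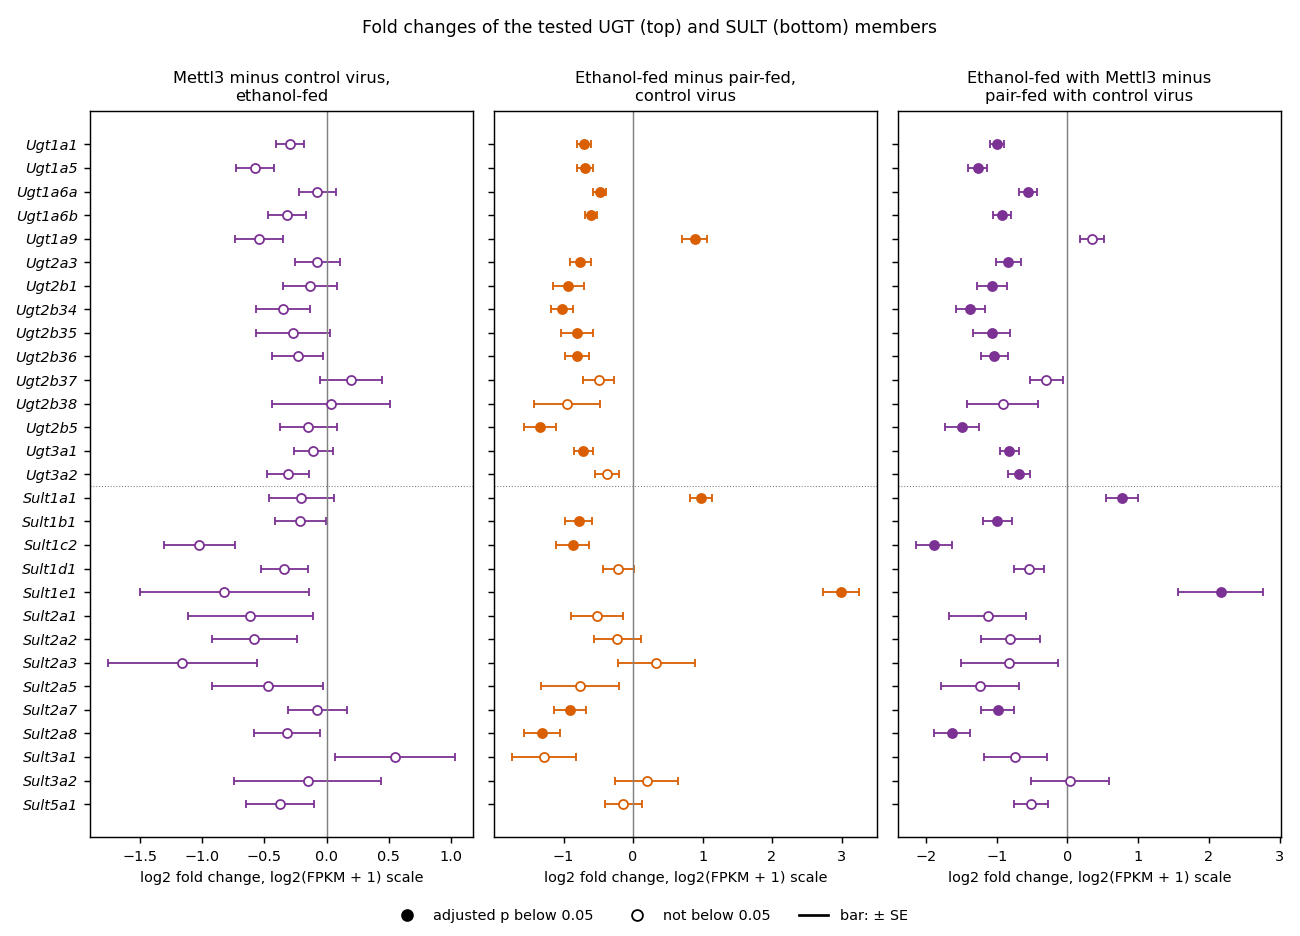
Log2 fold changes on the log2(FPKM + 1) scale (horizontal axes, a scale for each panel) of the 29 tested members in the 3 comparisons, UGTs above the dotted line and SULTs below it, with bars of ± SE; filled points have a limma adjusted p under 0.05. Filled points number 0 in the left panel, 18 in the middle panel and 18 in the right panel, and those right of 0 are Ugt1a9, Sult1a1 and Sult1e1 in the middle panel and Sult1a1 and Sult1e1 in the right panel.

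In the list genes, the comparison of Mettl3 with pair-fed livers called 4 of 15 donor supply genes lower and 2 higher, and 7 of 9 reversal genes and 7 of 11 transporters lower. Over all 10229 genes tested, 34.9% were called lower and 13.9% higher, and the lists were not tested as sets. Papss2 was at 25.1 ± 2.65 FPKM in Mettl3 livers and 66.6 ± 7.60 FPKM in pair-fed livers (SD, n = 3 each; log2 fold change -1.38, SE 0.12, limma adjusted p = 0.000212), and the higher donor genes, named after their values were seen, were Papss1 and the sulfate carrier Slc26a2. Of 22 transcription factors 11 fell and 0 rose, of 15 receptor targets 9 fell and 2 rose, and of 13 other transferases 6 fell and 2 rose. Nr1i3 was at 37.0 ± 19.4 FPKM in Mettl3 livers and 156 ± 7.89 FPKM in pair-fed livers (log2 fold change -2.16, SE 0.32, limma adjusted p = 0.00148). Cyp2b10 was at 5.20 ± 0.473 FPKM in Mettl3 livers and 0.382 ± 0.0238 FPKM in pair-fed livers (log2 fold change 2.16, SE 0.28, limma adjusted p = 0.000909). With median-ratio scaling, donor supply had 3 lower and 3 higher, the reversal list 5 lower, the transporters 7 lower, the transcription factors 9 lower and 2 higher, the receptor targets 9 lower and 2 higher, and the other transferases 4 lower and 3 higher. Over all 10180 genes tested with that scaling, 2168 were called lower and 2597 higher.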

How the data were processed

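The submitters' processing notes name fastp, HISAT2, HTSeq and the build mm10; versions, strand setting and the handling of shared exons are not given in the sources used here. The authors deposited 2 tables, each with 6 libraries, holding FPKM per library and, per the file headers, DESeq2 output: a signal column (mean counts divided by size factors), a linear fold (ratio), its log2, a p-value and a q-value. The tables hold 16842 and 16470 genes. Ethanol-fed control columns are in both and their largest relative difference was 1.08e-06, so all 9 libraries were joined.

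Groups follow the sample titles. Members, gene lists, motifs and tests were chosen with earlier results of these data known. The rule that took the members used symbols, not values. The members' values did choose the promoter windows shown and the members named. limma 3.58.1 (R 4.3.3; lmFit, eBayes with trend and robust) was fitted to log2(FPKM + 1) for genes at 1 FPKM or more in 3 or more libraries, with Benjamini-Hochberg adjustment over all genes and a threshold of 0.05. This scale understates changes of low genes. The first 2 comparisons used their own 6 libraries, and Mettl3 against pair-fed livers used all 9. Fits were also run on simulated counts that gave every gene and group the same spread, so that check does not cover groups of unequal spread. Whole reads were recovered from the deposited signal and FPKM for 100% of genes within a tolerance of 0.05. Named were members called in any comparison or averaging at least 10 FPKM in a group, and up to 4 called genes per list. Alternatives were pseudocount 0.1, no filter on low values, median-ratio scaling, a replicate block, limma-voom on recovered reads, other sets of libraries in the fit and leaving out each library. Libraries of a group differed by more than sampling noise. Python 3.11.15, numpy 2.4.6, pandas 2.3.3 and matplotlib 3.10.9 were used. With 3 libraries a group, an exact permutation test of a single value cannot go below p = 0.1, so none is given. Positions are from GENCODE M21 (GRCm38) and promoters from RefSeq (GRCm38.p6).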

Additional observations from a re-analysis of the deposited data

How the results depend on the processing

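No called member changed direction under any alternative run, while some members that were not called did. The median over all genes changed sign with median-ratio scaling, to 0.01 for ethanol feeding and 0.04 for Mettl3 against pair-fed livers. Of the 18 members called for ethanol feeding, Sult1a1, Sult1e1, Sult2a8, Ugt1a1, Ugt1a5, Ugt1a6b, Ugt1a9, Ugt2a3, Ugt2b34, Ugt2b5 and Ugt3a1 were called under every alternative. Under median-ratio scaling the ethanol comparison called 1796 genes higher and 1663 lower, and Mettl3 against pair-fed livers 2597 higher and 2168 lower, with 1 UGT higher; the cause was not tested. Leaving out each library in turn, the ethanol comparison called 7 to 14 UGTs lower, 1 to 5 SULTs lower, 408 to 1098 genes higher and 1130 to 3645 lower, with 1 UGT and 2 SULTs higher throughout. For Mettl3 against control virus it called 0 to 1 genes higher and 0 to 1 lower, and no member. For Mettl3 against pair-fed livers it called 0 to 1 UGTs higher, 12 lower, 1 to 2 SULTs higher, 4 to 7 lower, 944 to 1598 genes higher and 2398 to 4080 lower.

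Mettl3 lost its call, leaving 0 genes, with no filter on low values, which tests more genes, and with the replicate block; 2 genes were called lower in the fit of 9 libraries. Mettl3 against pair-fed livers called 1 UGT higher and 7 SULTs lower in a fit of 6 libraries, and 1 SULT higher by limma-voom on recovered reads. Replicate numbers did not pair the livers: deviations of livers with the same number correlated at -0.19, -0.11 and 0.11 for ethanol-fed and pair-fed control livers, and at -0.35, 0.39 and -0.41 for Mettl3 and ethanol-fed control livers. With the replicate block 10 UGTs were lower for ethanol feeding, Ugt2b35 not being called (adjusted p = 0.0533). In Mettl3 livers against pair-fed livers 8 SULTs were then lower, with Sult1d1 (0.0225), Sult2a1 (0.0439), Sult2a2 (0.0301) and Sult2a5 (0.0203) added.

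With 3 libraries a group and no count of the shared-exon reads, small differences were not detectable, and low members such as Sult2a7 rest on few reads.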
